A study of Arabidopsis thaliana with 2 samples.

Results

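The 10 genes described here are the seed maturation regulators LEC1 (AT1G21970), L1L (AT5G47670), ABI3 (AT3G24650), FUS3 (AT3G26790), LEC2 (AT1G28300), ABI4 (AT2G40220) and ABI5 (AT2G36270), and the repressors VAL1 (AT2G30470), VAL2 (AT4G32010) and VAL3 (AT4G21550). They were chosen by name and role, and every bin of 10 kb that each gene overlaps was taken, which gave 12 of the 11916 nuclear bins and 10 of 27253 protein-coding genes with an analysed bin. The data come from MNase-seq of Arabidopsis thaliana leaves: micrococcal nuclease digests the linker DNA, and the DNA that nucleosomes protect is sequenced and counted. The series holds 1 library of the chr5 mutant and 1 wild-type library, both from untreated plants kept on plates at 22 °C. In this series chr5 names a mutant of CHR5, a CHD1-type chromatin remodelling gene, and not a chromosome. The labels give neither the allele nor the plant's age, and the libraries hold genomic DNA, so no marker level can check the leaf label.

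With 1 library per genotype there is no replicate check and no test between genotypes. Each interval below is an exact 95% interval that covers counting error only, and PCR copies would make it too narrow. The libraries held 102961878 counts in the chr5 mutant and 99909809 in the wild type, of which 102412872 and 99392770 lay in the 5 nuclear chromosomes and set the scale. A value is therefore given in counts per 1000000 nuclear counts (CPM) per bin, and a fold is chr5 over wild type. The median analysed bin had 81.0 CPM in the chr5 mutant and 80.3 CPM in the wild type. A bin is many nucleosomes long and holds other genes too, so no value belongs to a promoter, a nucleosome or a gene alone.

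The seed maturation programme fills the embryo with storage protein and oil and prepares it for drying. LEC1 and L1L are NF-YB subunits of the CCAAT-binding NF-Y complex, whose histone-fold dimer resembles a pair of core histones. LEC2, FUS3 and ABI3 are transcription factors with a B3 domain, which reads the RY element found in promoters of storage protein genes. ABI4, an AP2-type factor, and ABI5, a bZIP factor, carry the abscisic acid (ABA) response of the seed and seedling. VAL1, VAL2 and VAL3 also have a B3 domain, but act as repressors that shut the seed programme down at germination, together with polycomb proteins and histone deacetylases. In leaves LEC1, LEC2 and FUS3 are normally silent, and no expression was measured here. CHR5 has been linked in Arabidopsis to the activation of ABI3 and FUS3 in developing seeds.

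The bins of LEC2, LEC1, ABI4, FUS3 and ABI3 had lower scaled counts than the median bin in both libraries. Those of L1L, ABI5 and the VAL repressors had about as many or more, so the activators lay on both sides. The series holds no control library of undigested or naked DNA, so a count level does not measure protection alone. By definition as many analysed bins lie below the median bin as above it. The share of all protein-coding genes below it was not computed, and no difference in level between activators and repressors was tested. This split is therefore no result about the roles. LEC2 was lowest, at 51.4 CPM in the chr5 mutant and 49.6 CPM in the wild type. LEC1 followed with 58.4 CPM in the chr5 mutant and 58.7 CPM in the wild type, ABI4 with 61.0 and 59.1 CPM, and FUS3 with 63.0 and 60.1 CPM. ABI3, which spans 2 bins, averaged 75.7 CPM in the chr5 mutant and 74.3 CPM in the wild type. These 5 genes were below the median bin of each library, from 0.634 times (LEC2) to 0.934 times (ABI3) it in the chr5 mutant and from 0.618 to 0.926 times it in the wild type.

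The remaining 5 genes were at or above the median bin. VAL2, also over 2 bins, averaged 82.6 CPM in the chr5 mutant and 82.5 CPM in the wild type, and VAL1 had 83.0 and 80.8 CPM. VAL3 had 93.8 CPM in the chr5 mutant and 95.2 CPM in the wild type, and ABI5 had 95.9 and 94.7 CPM. L1L was highest, at 114.8 CPM in the chr5 mutant, above 90.1% of analysed bins, and 114.4 CPM in the wild type, above 88.9% of them. The highest level was 2.24 times the lowest in the chr5 mutant and 2.31 times in the wild type, far more than any difference between the genotypes.

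The order of levels was nearly the same in both genotypes. Going upward in the chr5 mutant, the ratio of neighbouring genes had an interval that held 1 for ABI4 and FUS3 (1.032, 0.997 to 1.069), for VAL2 and VAL1 (1.005, 0.979 to 1.032) and for VAL3 and ABI5 (1.022, 0.993 to 1.051). In the wild type it did so for LEC1 and ABI4 (1.006, 0.970 to 1.044), ABI4 and FUS3 (1.018, 0.982 to 1.056), VAL1 and VAL2 (1.021, 0.994 to 1.048), and ABI5 and VAL3 (1.005, 0.977 to 1.034). The places of VAL1 and VAL2, and of VAL3 and ABI5, were exchanged between the libraries, in pairs that counting error alone does not separate.

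**Figure D1:**
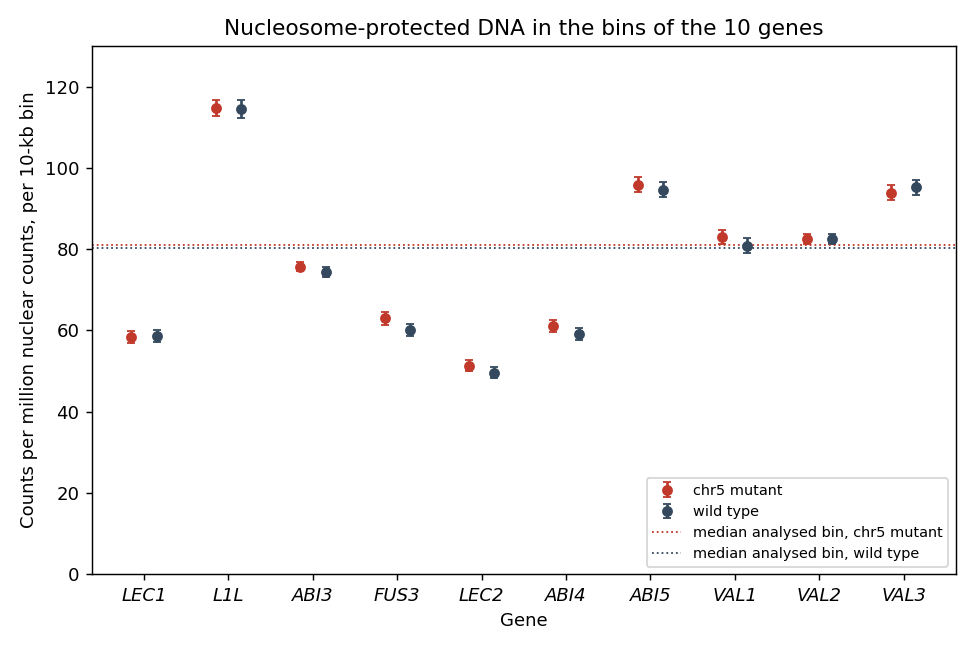
CPM per 10-kb bin (vertical axis) for each of the 10 genes in the chr5 mutant (left point) and the wild type (right point), with exact Poisson 95% intervals and dotted lines at the median analysed bin of each library. The 2 points of a gene lie close together, while the genes run from LEC2, at 51.4 CPM in the chr5 mutant and 49.6 CPM in the wild type, to L1L, at 114.8 and 114.4 CPM.

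The protein-coding coverage of a bin, which includes the member itself, moved with the bin's level. No correlation was computed for the coverage by other genes alone. Protein-coding genes cover 98.7% of the L1L bin, in which L1L itself takes 13.9% beside 5 other genes, among them NUDT2 and the related NF-YB2. They cover 34.8% of the LEC1 bin, 40.3% of the LEC2 bin, 40.7% of the ABI4 bin and 52.5% of the FUS3 bin. Over the 12 bins, Spearman's rho of protein-coding coverage with the level was 0.85 in the chr5 mutant and 0.85 in the wild type. Over all analysed bins of the wild type it was 0.34. The sets are unlike, since all analysed bins include some with no protein-coding gene, while every member bin holds one. These correlations run across bins of the same libraries and carry no p. The members themselves fill between 6.22% (the first VAL2 bin) and 57.1% (VAL3) of a bin, and the shares of the counts that came from the gene and from its neighbours were not measured.

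None of the 10 genes reached a 1.1-fold difference between the genotypes. Across protein-coding genes, 0.433% were at least 1.1-fold higher in the chr5 mutant and 0.605% at least 1.1-fold lower, so that a count of 0 among 10 is near the background and is no result about these genes. At the smaller threshold of a 5% increase, or the same fold downward, the members again numbered 0 in both directions, against 10.7% of genes higher and 2.9% lower. The folds lay between 0.986 for VAL3 and 1.047 for FUS3. The median log2 ratio was 0.022 over the members and 0.020 over all genes tested, and 8 of 10 members were above 0, against 69.5% of all genes. The fold intervals of all 45 pairs of members overlapped, which does not show that the genes were alike; differences between their folds were not tested.

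The 3 B3 activators had the highest median of the 4 role groups, at a log2 ratio of 0.051. This rank did not hold relative to the count decile, as given below. Relative to context the median was 0.0159 for the B3 activators and 0.0155 for ABI4 and ABI5. FUS3 (chromosome 3, 9850001 to 9860000) had 6449 counts in the chr5 mutant and 5976 in the wild type, a fold of 1.047 (1.011 to 1.085). It was the only member whose interval lay off 1; intervals above 1 were found for 28.4% of all genes and intervals below 1 for 8.22%. Its log2 ratio of 0.067 was above that of 87.8% of genes.

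LEC2 (chromosome 1, 9890001 to 9900000), which can start embryo formation in vegetative tissue when it is expressed there, had 5260 counts in the chr5 mutant and 4929 in the wild type. Its fold was 1.036 (0.996 to 1.077). AGP31 is the other protein-coding gene of that bin. ABI3 lies across a bin border, with 69.0% of the gene in the bin from 8990001 to 9000000 of chromosome 3 and the rest in the next bin. The first of these had 7854 counts in the chr5 mutant and 7529 in the wild type, a fold of 1.012 (0.981 to 1.045), and the second had 7649 and 7245 counts, a fold of 1.025 (0.992 to 1.058). Together they gave 1.018 (0.996 to 1.042), so both bins of ABI3 differed from 1 by less than counting error.

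Both NF-YB genes were close to equality. LEC1 (chromosome 1, 7720001 to 7730000), whose loss leaves the embryo intolerant of drying, had 5982 counts in the chr5 mutant and 5832 in the wild type, a fold of 0.996 (0.960 to 1.032). L1L (chromosome 5, 19310001 to 19320000), its nearest relative, had 11752 and 11374 counts, a fold of 1.003 (0.977 to 1.029). The sign of L1L turned when the median bin of the libraries was set equal, to a log2 ratio of -0.0092. The 2 genes that carry the ABA response were both above 0. ABI4 (chromosome 2, 16790001 to 16800000) had 6248 counts in the chr5 mutant and 5869 in the wild type, a fold of 1.033 (0.997 to 1.071), and ABI5 (chromosome 2, 15200001 to 15210000) had 9819 and 9410 counts, a fold of 1.013 (0.984 to 1.042). Neither interval lay off 1.

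The VAL genes did not share a direction. VAL1 (chromosome 2, 12980001 to 12990000), listed as HSI2 in the gene table, had 8500 counts in the chr5 mutant and 8035 in the wild type, a fold of 1.027 (0.996 to 1.059). VAL3 (chromosome 4, 11460001 to 11470000) had 9611 and 9459 counts, a fold of 0.986 (0.958 to 1.015), the lowest of the members and above 15.9% of genes. The fold of VAL2, listed as HSL1, was 1.001 (0.980 to 1.023) over its 2 bins on chromosome 4. These bins lay on either side of 1: the bin from 15480001 to 15490000, with 89.6% of the gene, had 9263 counts in the chr5 mutant and 9157 in the wild type, a fold of 0.982 (0.954 to 1.011). The preceding bin, mostly ASP5 and AT4G32000, had 7651 and 7243 counts and a fold of 1.025 (0.993 to 1.059). With the main bin alone, or with the median bin of the libraries set equal, the log2 ratio of VAL2 was -0.027 or -0.012, so its sign is not settled. The median log2 ratio was 0.0013 over the VAL genes, 0.033 over ABI4 and ABI5 and -0.0013 over LEC1 and L1L, and these differences between role groups were not tested.

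**Figure D2:**
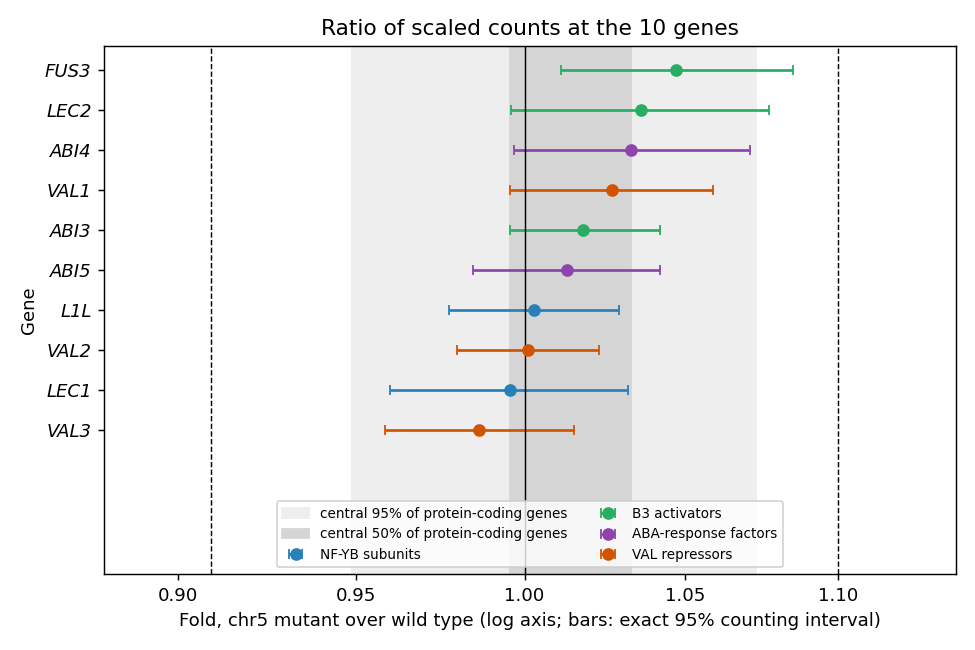
Fold of scaled counts, chr5 mutant over wild type, on a log axis for each gene in the order of its fold, with exact 95% counting intervals, colours for the role groups, grey bands for the spread of protein-coding genes and dashed lines at 1.1-fold. All 10 genes lie between the dashed lines, from VAL3 at 0.986 to FUS3 at 1.047, and the FUS3 interval alone does not reach 1.

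The ratio at a bin also goes with its count level across the genome. Over the analysed bins, Spearman's rho of the log2 ratio with the mean CPM was -0.43, and the median log2 ratio was 0.052 in the lowest decile of mean CPM and -0.047 in the highest. Over the 10 members the same rho was -0.48, a description over points that share their libraries. Taken relative to the median of bins in the same decile, FUS3 was at 0.034, VAL1 at 0.023, ABI4 at 0.014 and ABI5 at 0.013. L1L was at 0.011, LEC2 at 0.0087 and ABI3 at 0.0043, while LEC1 was at -0.048, VAL3 at -0.026 and VAL2 at -0.017. The B3 activators had a median of 0.0087 on this scale, the value of LEC2, against 0.051 without it. ABI4 and ABI5 were both above 0.0087, so the B3 activators were not the highest role group here. Each member's value relative to its decile was smaller in size than the SD of the bins in the gene's own decile, which was 0.050 for FUS3 and 0.056 for LEC1.

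**Figure D3:**
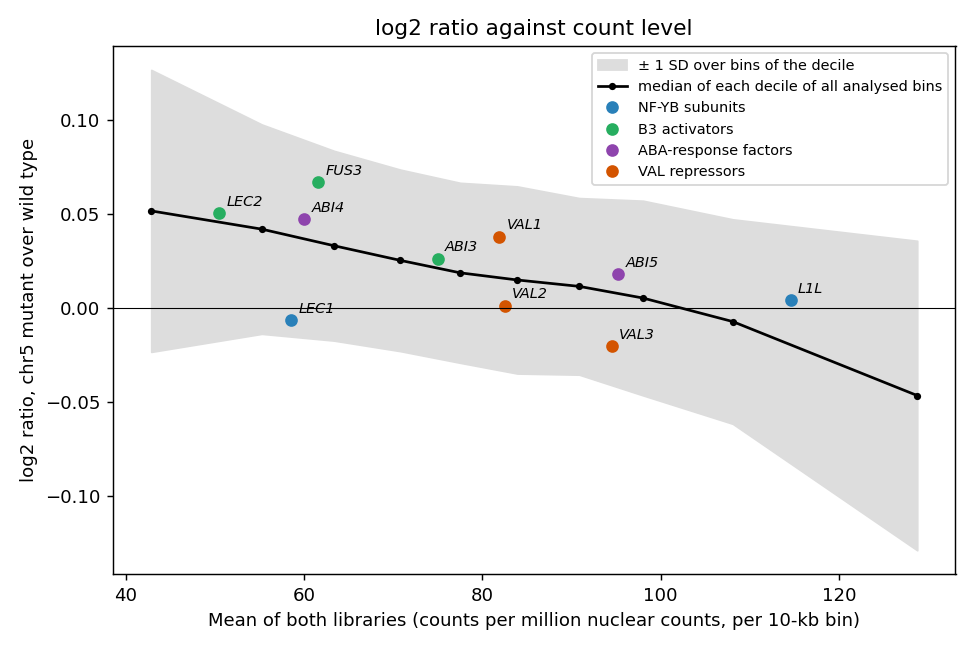
log2 ratio of chr5 mutant over wild type (vertical axis) against the mean CPM per bin of both libraries (horizontal axis), with the median and ± 1 SD of each decile of all analysed bins in black and grey. Every member lies inside the grey band; FUS3, LEC2 and ABI4 sit at low counts, where the median bin is above 0, and LEC1, at a like count, lies below the line.

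Against their own surroundings, LEC1 and VAL3 stood lowest. The 20 context bins of each gene are the 10 bins on either side of it, and all 200 of them passed the count filter. Each of the 20 context bins of LEC1 had a higher log2 ratio than the LEC1 bin. Their median was 0.056 with an SD of 0.038, and relative to that median LEC1 was at -0.062, or -1.63 SD. The log2 ratio of LEC1 was -0.0066, with a counting interval from -0.059 to 0.046, and the lowest context bin was at -0.0019. Counting error alone therefore does not separate LEC1 from every context bin. The bin before LEC1 (7710001 to 7720000) had 6240 counts in the chr5 mutant and 5701 in the wild type, a fold of 1.062 (1.025 to 1.101). The bin after it, led by PIP5K1, had 6246 and 5797 counts, a fold of 1.046 (1.009 to 1.084). LEC1 thus stood level between bins that were higher in the chr5 mutant, and with 1 more bin on either side the log2 ratio turned to 0.049.

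VAL3 was above 1 of its 20 context bins, whose median was 0.056, and relative to that median it was at -0.076, or -1.34 SD. The bin before it, led by APC4, a subunit gene of the anaphase-promoting complex, had 9228 counts in the chr5 mutant and 8448 in the wild type, a fold of 1.060 (1.029 to 1.092), and the bin after it was at 1.023 (0.990 to 1.057). With these neighbours added, the log2 ratio of VAL3 was 0.031. Of all protein-coding genes, 7.62% were below every context bin or every one but 1, and 7.61% were above every one or every one but 1. Among the 10 members 2 were that low, and 0 were that high. This way of counting was chosen after the values of LEC1 and VAL3 were seen.

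The other windows held their genes inside the range of the context, with FUS3 and ABI4 among the upper bins. FUS3 was above 18 of its 20 context bins, at 0.047 over their median of 0.020, or 1.08 SD. ABI4 was above 17, at 0.041 over a median of 0.0060, or 1.01 SD. LEC2 was above 14 and VAL1 above 13, while ABI3 and L1L were each above 12. ABI5 was above 9, and VAL2, at -0.034 from the median of its context, above 5. The surroundings themselves differed, since the median of the context was -0.0097 around L1L, the window with the highest median level, and 0.056 around LEC1. Of the 10 members, 6 were above the median of their context and 8 were above 0, against 69.5% of all genes above 0. The share of all genes above the median of their context was not computed, so the count of 6 is no result about the members.

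**Figure D4:**
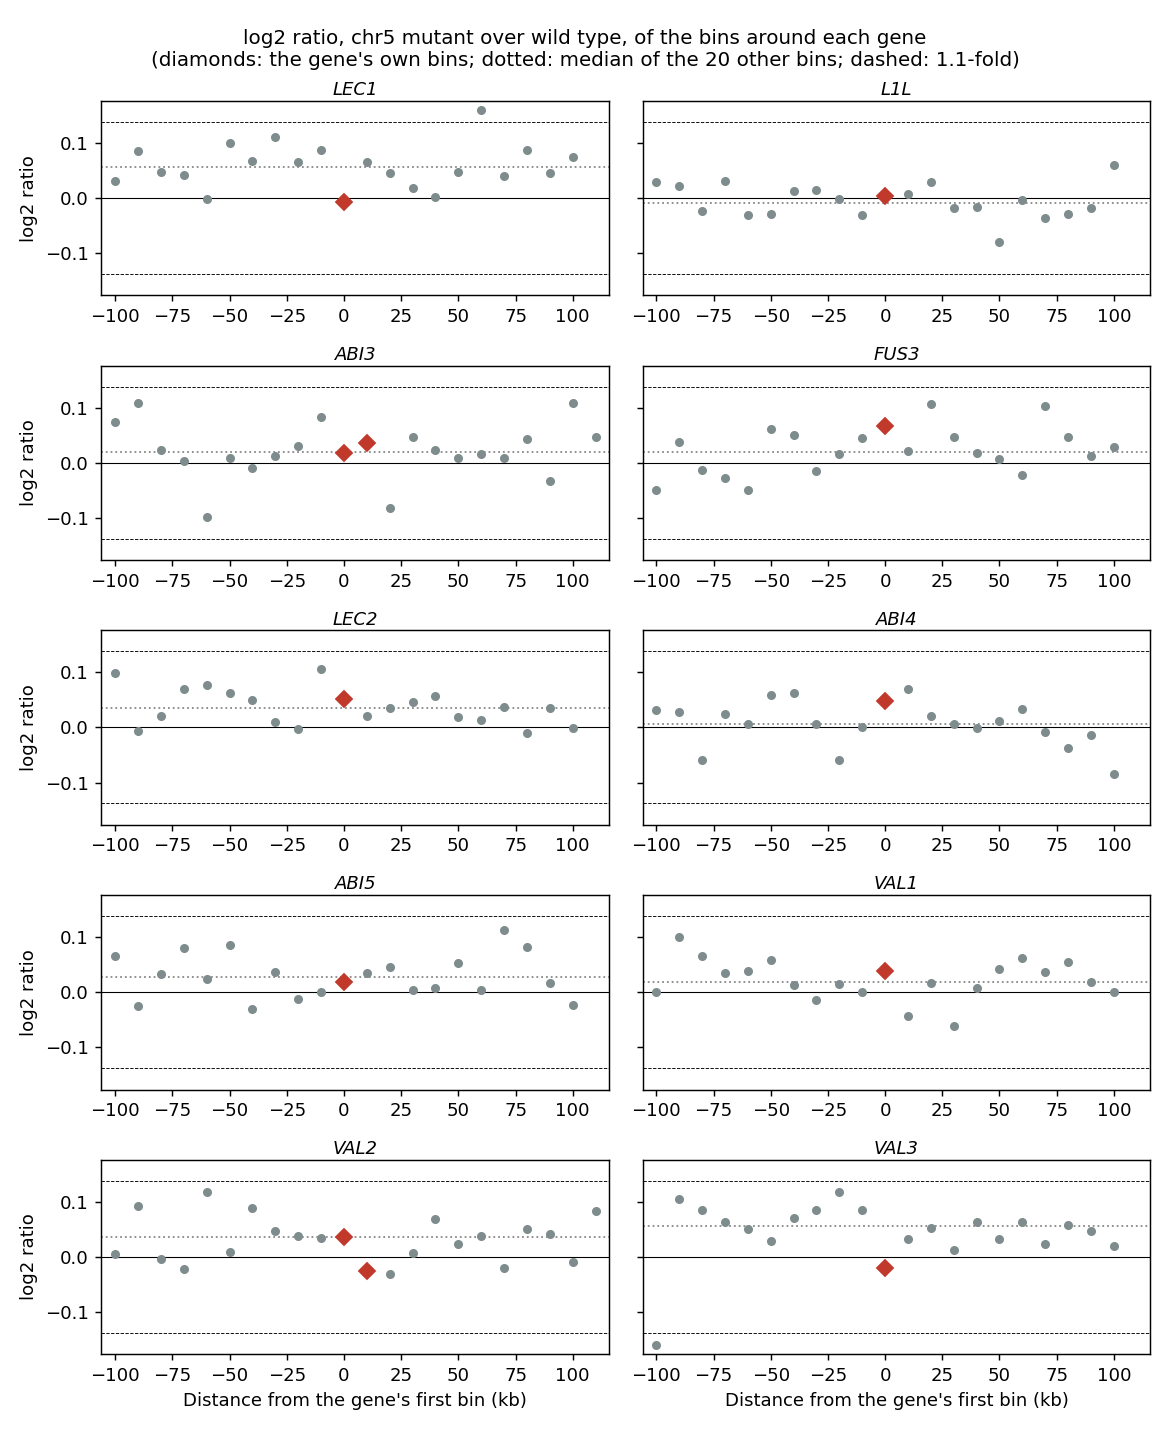
log2 ratio of chr5 mutant over wild type (vertical axis) for the bins within 10 bins of each gene, against the distance in kb from the gene's first bin, with diamonds for the gene's own bins, a dotted line at the median of the 20 context bins and dashed lines at 1.1-fold. The LEC1 diamond lies under all other points of its panel and the VAL3 diamond under all but 1, while FUS3 and ABI4 lie among the upper points.

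Levels along each window followed nearly the same pattern in both genotypes. Pearson's r of the log2 CPM of chr5 and wild type across the 21 or 22 bins of a window was between 0.993 (VAL2) and 0.998 (ABI5). This is a correlation across bins with no p, and it can be high where single bins differ. The VAL3 window, also at 0.993, held bins at folds of 0.895 and 1.085. In the window of ABI4, for example, bins ran from 48.1 to 152.5 CPM in the chr5 mutant and from 48.5 to 149.9 CPM in the wild type. The places of the levels within their windows varied among the activators. The LEC2 level was above 3 of its 20 context bins in both libraries, that of FUS3 above 6 in the chr5 mutant and 4 in the wild type, that of ABI4 above 6 and 5, and that of LEC1 above 5 and 8. ABI3 was above 11 in both libraries, ABI5 above 16 in both, and L1L above 16 in the chr5 mutant and 15 in the wild type. Of the repressors, VAL3 was above 16 in the chr5 mutant and 17 in the wild type, VAL1 above 14 and 13, and VAL2 above 9 and 8. All 10 genes lie on chromosome arms, between 4.1 Mb (FUS3) and 13.2 Mb (ABI4) from the approximate centromere position.

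In each of the 5 related gene lists, 0 genes were 1.1-fold higher or lower, which for lists of 8 to 16 genes is near the background of 0.433% higher and 0.605% lower and is no result about them. Of 15 other regulators of the seed programme, 11 were above 0, against 69.5% of all genes, and the median log2 ratio was 0.021. MYB115, a MYB factor that can promote embryo formation, was the highest, with 5714 counts in the chr5 mutant and 5178 in the wild type and a fold of 1.071 (1.031 to 1.112). The bZIP gene EEL was the lowest of this list, with 19833 and 19887 counts over 2 bins and a fold of 0.968 (0.949 to 0.987). PKL, a CHD3-type remodeller gene that helps keep the seed programme off in seedlings, was close to it, with 17023 counts in the chr5 mutant and 17020 in the wild type and a log2 ratio of -0.043; it was picked out after its value was seen.

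Genes of polycomb complexes and histone deacetylases were spread around the genome's median. Of 16 polycomb and histone deacetylase genes, 11 were above 0, against 69.5% of all genes, with a list median of 0.016. The ubiquitin ligase gene RING1B was the highest at 1.045 (1.018 to 1.072), with 11664 counts in the chr5 mutant and 10836 in the wild type. MSI1, which encodes a histone-binding subunit, was the lowest at 0.967 (0.943 to 0.992), with 12091 and 12130 counts. Of the 14 storage and late embryogenesis genes that the B3 activators and ABI5 switch on, 8 were above 0, against 69.5% of all genes. The median of this list was 0.017. SESA1 to SESA4, all above 0, lie together in 2 bins, so their values are not separate. The highest was the cruciferin gene CRU2, at a log2 ratio of 0.070 with 10175 counts in the chr5 mutant and 9406 in the wild type. The lowest was the late embryogenesis gene EM1, at -0.053 with 9394 and 9459 counts. OLEO3 of the storage list and EMF2 of the polycomb list share 1 bin, with 10027 counts in the chr5 mutant and 9500 in the wild type. BMI1A lies in context bins of VAL1, and EM6 in context bins of ABI4, so these values are not separate either.

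In the list of 15 ABA signalling genes, 8 were above 0, against 69.5% of all genes, and the list median was 0.0005. The receptor gene PYL1 was the highest, at a log2 ratio of 0.083 with 5505 counts in the chr5 mutant and 5045 in the wild type. ABF2, a bZIP gene of the same family as ABI5, was the lowest, at -0.081 with 8302 and 8522 counts. The 8 other NF-YB genes were close together, with a median of 0.0019 and log2 ratios from -0.011 for NF-YB2 to 0.026 for NF-YB5. NF-YB2 shares a bin with L1L, so these values are not separate. No difference between any of these lists and the 10 genes was tested.

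**Figure D5:**
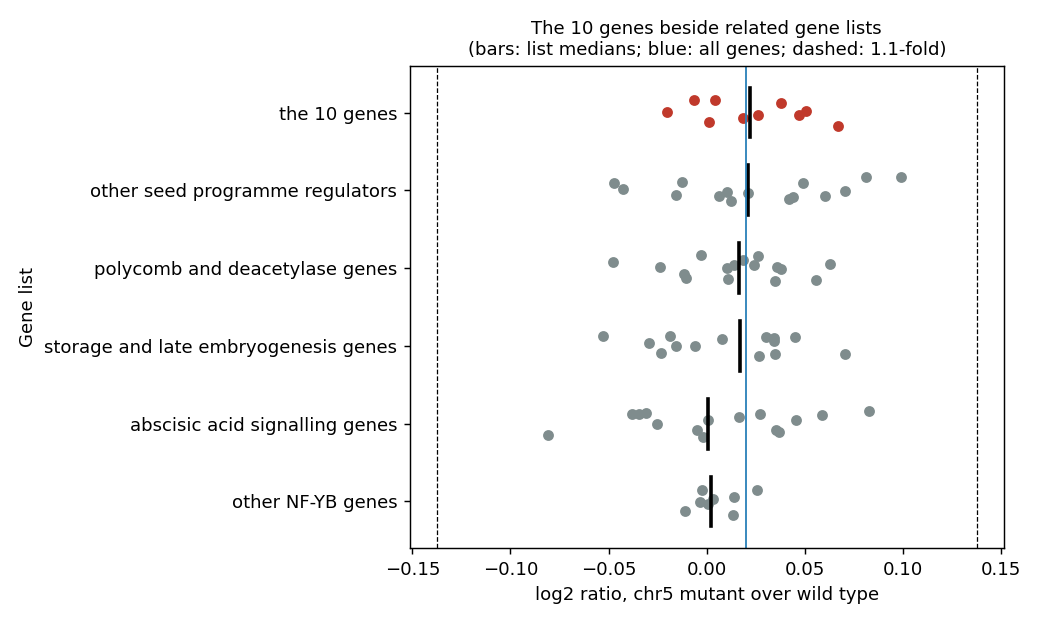
log2 ratio of chr5 mutant over wild type for each gene (points) of the 10 genes and of 5 related lists, with black bars at list medians, a blue line at the median of all protein-coding genes (0.020) and dashed lines at 1.1-fold; the vertical scatter within a list has no meaning. No point reaches a dashed line, and the list medians lie between 0.0005 for the abscisic acid list and 0.022 for the 10 genes.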

How the data were processed

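MNase-seq libraries of 1 chr5 mutant and 1 wild-type leaf sample were analysed. The authors deposited whole-number counts in 10-kb bins for each library, not normalized, as the values show. BWA 0.7.5a and bedtools appear in the submitters' processing notes with no role, and neither a genome build nor the treatment of duplicate reads is given there.

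Gene positions came from a RefSeq table of assembly TAIR10.1, in which all members and list genes were found by locus ID. No build is named, so coordinates printed are those of the deposited bins, counted from 1. As a check of the placement, log2 counts of the wild type were correlated with gene coverage, each less its running median over 21 bins, which gave 0.39 to 0.46 on the 5 chromosomes with no shift and at most 0.10 at shifts of up to 4 bins. No sequence was used here.

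Counts of the bins of a gene were summed and scaled to the nuclear total. Bins under 0.25 times the median CPM (181 of 11916) were left out; no bin of a member or its context was among them. Log2 ratios used a pseudocount of 1. Fold intervals are exact conditional binomial ones and level intervals exact Poisson ones, at 95%. Counts of the median analysed bin were 8296 in the chr5 mutant and 7978 in the wild type, which gives the log2 ratio a counting SD of 0.023, against an SD over bins of 0.064.

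The members, lists and 1.1-fold threshold were chosen with earlier results of these data known. All members were named, and of each other list the highest and lowest gene. Scripts were tested on simulated counts. The software was Python 3.11.15 with scipy 1.17.1, numpy 2.4.6 and pandas 2.3.3, and matplotlib 3.10.9 for figures. Alternatives were other scalings, filters, thresholds, a pseudocount of 10, other bins for a gene, and ratios relative to context or count decile.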

Additional observations from a re-analysis of the deposited data

How the results depend on the processing

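The count of members past 1.1-fold was 0 under all 9 alternatives of processing and at thresholds of a 5% and a 25% increase or the same fold downward. The median log2 ratio of the members, 0.022, fell outside its counting interval with the median bin set equal, at 0.0090, by construction of that scaling. It was 0.010 both relative to context and relative to count decile, inside that interval. Of 90 single-gene values, 85 stayed inside the gene's counting interval. The other 5 were LEC1 and VAL3 with 1 more bin either side (0.049 and 0.031), which turned their sign, and LEC1, VAL2 and VAL3 relative to their context (-0.062, -0.034 and -0.076). Much of this tally was fixed in advance. The filter alternatives left every value unchanged, and totals with organelles or the larger pseudocount moved values by far less than counting error. The bin of the gene's midpoint changed only ABI3 and VAL2, the genes that span a bin border. These settings therefore tested little, for the tally and for the count of members past 1.1-fold. ABI3, FUS3, LEC2 and ABI4 kept their sign throughout. Signs also turned, inside the interval, for L1L (-0.0055 with 1 more bin either side), VAL1 (-0.0030 likewise), VAL2 (-0.017 relative to its decile) and ABI5 (-0.010 relative to its context). No paired analysis was possible because each genotype has 1 library. At this depth the fold intervals were narrowest for VAL2 (0.980 to 1.023) and widest for LEC2 (0.996 to 1.077); a change in a single nucleosome or promoter was not detectable at this bin size.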

Other observations

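Among the 200 context bins, 1 was at least 1.1-fold higher in the chr5 mutant and 1 at least 1.1-fold lower, against 0.81% and 2.65% of all analysed bins. The higher one lies 6 bins after LEC1 (chromosome 1, 7780001 to 7790000, with AT1G22060 as its main gene), with 4162 counts in the chr5 mutant and 3615 in the wild type, a fold of 1.117 (1.068 to 1.169). The lower one lies 10 bins before VAL3 (chromosome 4, 11360001 to 11370000) and holds no protein-coding gene, with 7272 counts in the chr5 mutant and 7888 in the wild type, a fold of 0.895 (0.867 to 0.924). A further bin with no protein-coding gene follows ABI3 (chromosome 3, 9010001 to 9020000), where the chr5 mutant had 11028 counts and the wild type 11330, a fold of 0.945 (0.920 to 0.970), next to the ABI3 bins at 1.012 and 1.025. The bins with no protein-coding gene did not share a direction. The bin from 11370001 to 11380000 of chromosome 4, next to the lower one before VAL3, also holds none. It had 3449 counts in the chr5 mutant and 3113 in the wild type, a fold of 1.075 (1.024 to 1.129). The bin after ABI3 was picked out after its value was seen, and none of these values has a replicate.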
